A study of Mus musculus with 4 samples.

Results

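The Ccr2/Ly6c2/Chil3 cells were 320 of the 44554 cells kept from 4 single-cell RNA sequencing (scRNA-seq) libraries of mouse pancreatic tumors. They were chosen by their unique molecular identifiers (UMIs, each standing for 1 captured transcript). A cell had to have at least 200 genes, at least 3 of the 6 macrophage genes Csf1r, Adgre1, Cd68, Lyz2, Ctss and Msr1, fewer than 2 of the neutrophil genes Csf3r, Retnlg, Cxcr2 and Il1r2, and fewer than 4 of the epithelial genes Krt7, Krt8, Krt18, Krt19, Epcam, Cldn4 and Cldn7. Cells that passed these steps are called gated myeloid cells. Of these, a cell also had to stay under upper limits on macrophage genes, among them fewer than 3 UMIs of Mmp12 and fewer than 5 of C1qa, C1qb and C1qc together, and needed at least 2 UMIs of Ccr2, Ly6c2 and Chil3 together. All values of these genes in the chosen cells follow from the choice and are a description.

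KPC cells (FC1242, a mouse pancreatic cancer line that carries, among its alleles, Trp53 R172H and Pdx1-Cre) were grafted into the pancreas of obese male C57BL/6 mice that had been on a high-fat diet for 24 weeks. Pdgfrb-TK mice carry a thymidine kinase under the Pdgfrb promoter, so that ganciclovir (GCV) kills proliferating cells in which this promoter is active, and they received GCV at 50 mg/kg i.p. or PBS. Wild-type (WT) mice received D-CAN, a peptide that homes to adipose stromal cells and carries an apoptosis-inducing part, at 30 mg/kg s.c., or PBS. Injections were given every other day for 25 days, and age is 7 months in the sample labels but 12 months in the methods. Tumors of a treatment were pooled into 1 library, so there is no replicate of any condition, no test between conditions and no p-value, and intervals cover counting error only. The libraries are given throughout with the Pdgfrb-TK model first (GCV, then PBS), followed by the WT mice (D-CAN, then PBS). They held 12280, 10469, 10178 and 11627 kept cells, of which 112, 58, 85 and 65 were Ccr2/Ly6c2/Chil3 cells, with a median of 3340.5, 2505, 5748 and 6257 UMIs per cell. Pairs of libraries shared 25 to 40 barcodes of kept cells, and no barcode belonged to a Ccr2/Ly6c2/Chil3 cell in both libraries of a pair.

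Classical monocytes are short-lived blood cells that leave the bone marrow through the chemokine receptor CCR2, carry the surface protein LY6C and enter inflamed tissue and tumors. There they lose LY6C and become macrophages, which gain complement C1q and lipid-handling genes such as Apoe. Chil3 encodes the chitinase-like protein YM1, which is made by monocytes and by some macrophages and neutrophils, so its mRNA alone does not name a monocyte. Interferon gamma, released by T and NK cells, raises MHC genes and their transactivator Ciita in such cells.

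The names of the 3 selecting genes did not stand equally behind the cells. Ly6c2 had at least 1 UMI in 8.04%, 10.3%, 58.8% and 23.1% of the cells, that is in 9, 6, 50 and 15 cells. Ccr2 was found in 62.5%, 84.5%, 92.9% and 53.8%, and Chil3 in 95.5%, 67.2%, 67.1% and 90.8%. Chil3 supplied 89.3%, 70.6%, 54.3% and 92.0% of the UMIs counted toward the minimum. Cells with all 3 genes made up 47.1% of the D-CAN cells but 5.36%, 8.62% and 7.69% of those in the other libraries, and cells with Chil3 alone made up 34.8%, 15.5%, 2.35% and 32.3%. The data thus go against the name Ly6c2 monocytes outside the D-CAN library, and the cells are called here by the genes that chose them.

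Chil3 UMIs were not limited to myeloid cells. In KPC tumor cells, taken as cells with 4 or more epithelial genes and fewer than 3 macrophage genes, a Chil3 UMI was found in 41.6%, 3.38%, 0.732% and 3.15%. Their median depth was 15309, 12135, 29994 and 21450 UMIs. With every cell thinned to 2000 UMIs, the shares of tumor cells with Chil3 were 7.95%, 0.657%, 0% and 0.501%, against 86.0%, 59.0%, 65.0% and 76.6% of the Ccr2/Ly6c2/Chil3 cells that were deep enough. The Pdgfrb-TK/GCV library had Chil3 in the largest share of tumor cells at both depths, and the high shares in the chosen cells follow from the choice. Chil3 was also found in other myeloid cells. In C1q macrophages (defined below) the shares were 78.3%, 22.4%, 6.02% and 19.9%, or 66.0%, 22.2%, 3.83% and 14.2% when thinned. In neutrophils (also defined below) they were 69.4%, 22.6%, 9.62% and 42.9%. Ly6c2 was found in at most 0.512% of tumor cells in any library. Whether free Chil3 RNA in the suspension added to these counts or to the choice of single cells was not tested.

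**Figure D1:**
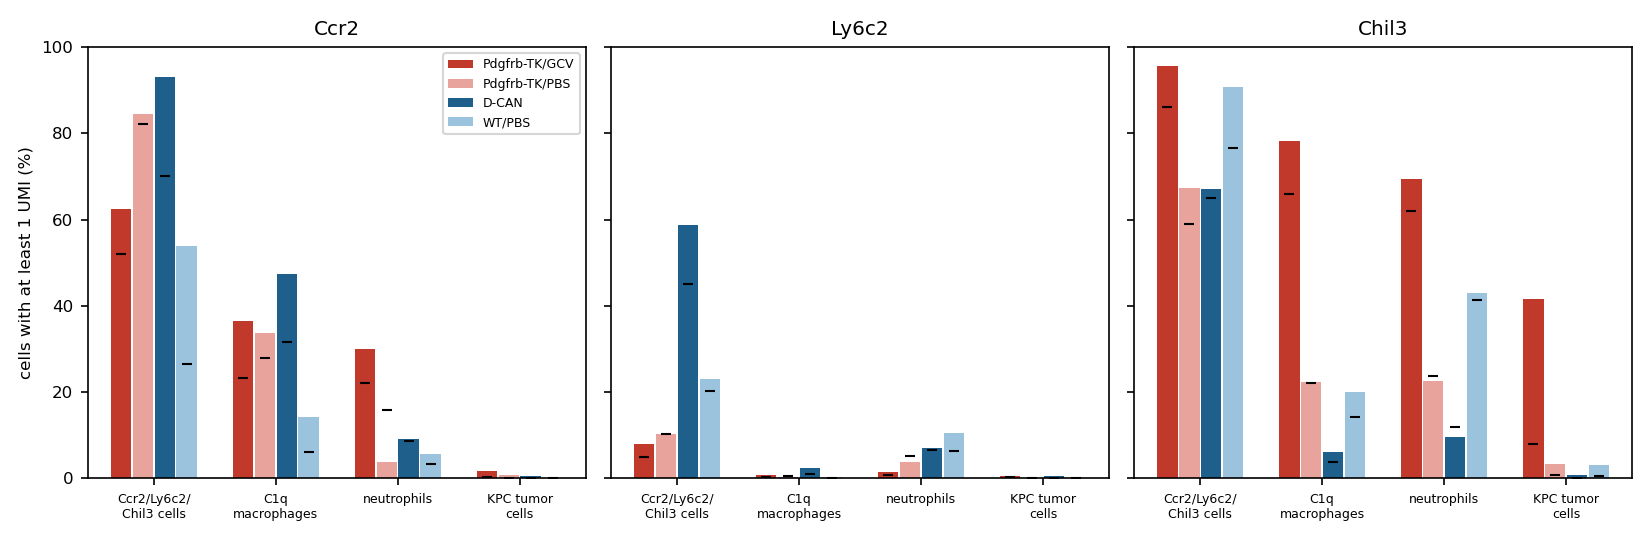
Share of cells (%) with at least 1 UMI of Ccr2, Ly6c2 or Chil3 in 4 classes of cells and 4 libraries, with black dashes for cells thinned to 2000 UMIs. Ly6c2 reached 58.8% of the Ccr2/Ly6c2/Chil3 cells in D-CAN and 23.1% or less in the other 3 libraries, and Chil3 reached 41.6% of KPC tumor cells in Pdgfrb-TK/GCV.

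Cells lay close to the minimum of 2 UMIs on both sides, most of all in Pdgfrb-TK/GCV. Just outside it, 42, 8, 18 and 10 cells that met every other limit had 1 UMI of the 3 genes, and just inside it 27, 9, 7 and 6 cells had 2. At least 10 UMIs were found in 55, 21, 53 and 38 of the chosen cells, and the median was 9, 7, 11 and 12. The upper limits mattered more, since 1069, 150, 246 and 193 gated myeloid cells had 2 or more UMIs of the 3 genes but were removed by these limits.

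Ccr2 is annotated at chr9:124101950-124113557 on the plus strand, Ly6c2 at chr15:75108158-75111970 on the minus strand and Chil3 at chr3:106147554-106167564 on the minus strand (GENCODE M21, GRCm38). Ly6c2 and Chil3 share sequence with near copies, and whether this raised or lowered their counts was not tested. Of the words of 50 bases in the last 500 bases of the transcripts, 34.2% of those of Ly6c2 also occur in Ly6c1 and 17.8% of those of Chil3 in Chil4. In the chosen cells Ly6c1 was at 22.3, 15.6, 13.3 and 4.17 CPM (UMIs of a gene per 1000000 UMIs) in the UMIs summed over the cells of a library, and Chil4 had no UMI in any library. The 250 bases before the RefSeq starts of Ly6c2 and Chil3 are shown because Ly6c2 is the classical monocyte marker of the rule and Chil3 supplied most of its UMIs. They lie with Ly6c2 at chr15:75111972-75112221 and Chil3 at chr3:106167565-106167814, both on the minus strand of GRCm38.p6. Both strands were searched for GAGGAA, a core bound by ETS factors such as PU.1, and for the C/EBP-type word TTGCNNAA, which are found in 23.3% and 9.56% of 32851 RefSeq promoter windows. Capitals mark the match in the windows shown, a GAGGAA from 108 to 103 bases before this Ly6c2 start, and no word was found in the Chil3 window. RefSeq lists a second Ly6c2 start, whose window is not shown and holds a further GAGGAA from 8 to 3 bases before it.
Ly6c2: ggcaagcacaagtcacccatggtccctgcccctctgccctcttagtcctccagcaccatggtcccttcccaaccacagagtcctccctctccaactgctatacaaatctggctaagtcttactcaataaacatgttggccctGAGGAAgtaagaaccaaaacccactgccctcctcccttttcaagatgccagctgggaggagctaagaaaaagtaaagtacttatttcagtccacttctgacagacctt
Chil3: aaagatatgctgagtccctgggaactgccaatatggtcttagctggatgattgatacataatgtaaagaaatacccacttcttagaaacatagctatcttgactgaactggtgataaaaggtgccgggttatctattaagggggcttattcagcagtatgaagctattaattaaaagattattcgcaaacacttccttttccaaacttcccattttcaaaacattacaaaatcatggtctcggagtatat

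The Ccr2/Ly6c2/Chil3 cells were 0.912%, 0.554%, 0.835% and 0.559% of all kept cells. The share in Pdgfrb-TK/GCV was 1.65 times that in Pdgfrb-TK/PBS (95% counting interval 1.19 to 2.30), and the share in D-CAN 1.49 times that in WT/PBS (1.07 to 2.10). For GCV the ratio was 1.19 (0.801 to 1.79) without cells carrying a neutrophil gene, an interval that holds 1. It was 3.16 with each cell thinned to 2000 UMIs before the rule. The upper limits were then applied to thinned counts, so cells above a limit at full depth could be chosen. This chose 143 GCV and 38 PBS cells, in place of 112 and 58. The ratio between the PBS libraries was 0.991 (0.683 to 1.43). The higher share in Pdgfrb-TK/GCV went with a rise of all gated myeloid cells, from 4.63% to 14.3% of kept cells (3.09-fold, 2.79 to 3.42), so that among gated myeloid cells the share of the chosen cells was 6.37% against 12%, a ratio of 0.533 (0.385 to 0.745). In D-CAN the gated myeloid cells were 9.08% of kept cells against 8.09% in WT/PBS (1.12-fold, 1.02 to 1.23), and the chosen cells were 9.20% of them against 6.91% (ratio 1.33, 0.953 to 1.87). Both PBS libraries differed by this second measure, with a ratio of 1.73 (1.19 to 2.51).

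These ratios depended on Chil3. Counted by Ccr2 and Ly6c2 without Chil3, the share of kept cells was 1.02 times the PBS value in Pdgfrb-TK/GCV and 3.12 times in D-CAN. With no upper limit on the macrophage genes, an alternative chosen after seeing the data, the ratio in Pdgfrb-TK/GCV was 4.84. Other macrophage classes also rose with GCV. C1q macrophages (gated myeloid cells under the Mmp12 limit with 5 or more C1q UMIs) were 2.92 times as frequent among kept cells as in Pdgfrb-TK/PBS and Mmp12 macrophages 5.13 times. In D-CAN the same classes stood at 0.980 and 1.09 times WT/PBS. Gated myeloid cells that met the same upper limits but held under 2 UMIs of the selecting genes moved in the same direction as the chosen cells by each ratio. Their share of kept cells was 1.56 times the PBS value with GCV (1.12 to 2.18) and 1.80 times with D-CAN (1.31 to 2.51), and their share of gated myeloid cells 0.504 and 1.61 times. Cells with over 20% mitochondrial UMIs made up 4.48%, 8.42%, 29.3% and 18.2% of kept cells but only 2, 0, 5 and 0 of the chosen cells. Without such cells the ratios of the share of kept cells were 1.55 for GCV and 1.63 for D-CAN.

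**Figure D2:**
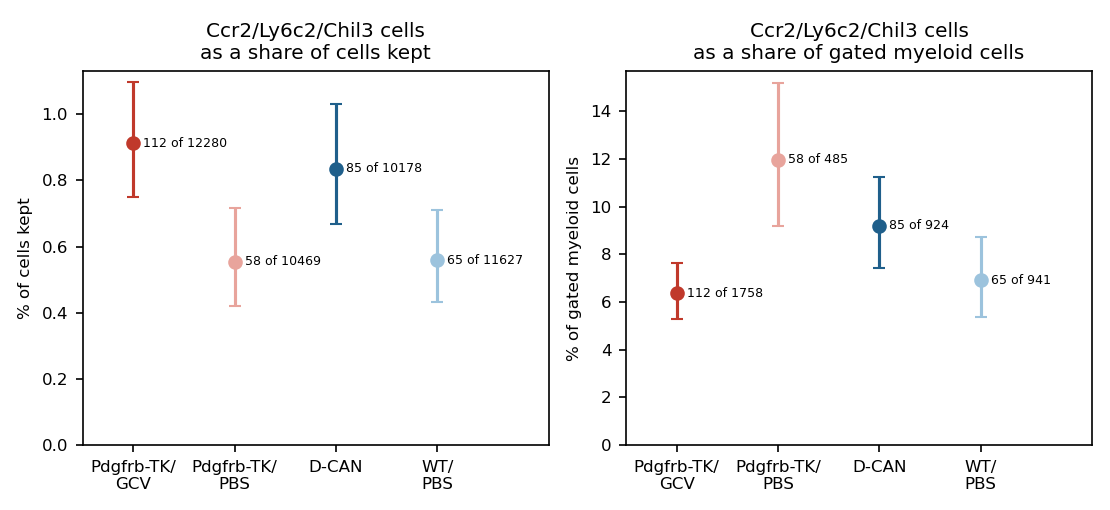
Ccr2/Ly6c2/Chil3 cells as a share (%) of all kept cells (left) and of gated myeloid cells (right), 1 library per condition, with bars for exact 95% binomial intervals that cover counting error only. Both treated libraries lie above their PBS library on the left, at 0.912% and 0.835%, while on the right Pdgfrb-TK/PBS is highest at 12%.

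Markers of other cell types were measured in the chosen cells before their genes were compared. T, NK and B cell markers were near 0, with summed levels of 1.71, 5.21, 20.9 and 0 CPM for 6 T cell genes. The NK genes Ncr1, Gzma and Prf1 had no UMI in any library. Of 8 dendritic cell markers, summed at 73.7, 93.7, 72.3 and 12.5 CPM, Itgax was the most abundant and Siglech had no UMI. Neutrophil markers stood at 454, 484, 459 and 2051 CPM summed over 8 genes, against 260, 247, 188 and 219 in C1q macrophages, with Ly6g at 0 in every library. Exactly 1 of the 4 neutrophil genes that the rule allows was found in 43.8%, 22.4%, 55.3% and 69.2% of the cells. Il1r2, the decoy receptor for interleukin 1, was found in 41, 12, 22 and 40 cells, and the growth factor receptor Csf3r in 6, 1, 24 and 5.

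At least 1 epithelial gene was detected in 88.4%, 93.1%, 56.5% and 92.3% of the chosen cells, shares close to those of C1q macrophages in the same libraries (92.2%, 87.8%, 61.2% and 91.8%). The 9 markers of KPC tumor cells summed to 1948, 2415, 186 and 738 CPM, with Krt18 or Krt8 on top, and the 6 markers of cancer-associated fibroblasts (CAF) to 740, 72.9, 636 and 820 CPM. Cells with none of the 7 epithelial genes and fewer than 2 markers of T, B, CAF or dendritic cells numbered 13, 3, 34 and 5. Endothelial markers summed to 134, 15.6, 64.7 and 4.17 CPM, acinar markers to 10.3, 15.6, 124 and 4.17, and red cell markers were found in Pdgfrb-TK/PBS alone at 62.5 CPM. What part these transcripts have in the comparisons below was not tested.

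The WT/PBS cells stood apart from those of the other 3 libraries. Hmox1, which encodes the heme-degrading enzyme heme oxygenase 1, was at 153, 52.1, 110 and 4592 CPM. The ferritin heavy chain gene Fth1 was at 6299, 3706, 4475 and 35264 CPM. The neutrophil-attracting chemokines Cxcl2 (1491, 1046, 1400 and 11561 CPM) and Cxcl3 (53.1, 57.3, 57.1 and 3169 CPM) and the neutrophil-linked alarmin S100a8 (73.7, 208, 152 and 1256 CPM) were also highest in WT/PBS. Lyz2, the lysozyme of myeloid cells, was lowest there, at 2272, 2993, 9985 and 768 CPM. WT/PBS was thus the highest of the libraries for the first 5 of these genes and the lowest for Lyz2. Part of this was seen in other classes of the same library, since Fth1 in C1q macrophages was at 7702, 6767, 7088 and 16525 CPM and Lyz2 at 4702, 4979, 5620 and 2638 CPM. S100a8 was at 9769 CPM in WT/PBS neutrophils (cells with 2 or more of the 4 neutrophil genes and fewer than 4 epithelial genes). Among the 20 WT/PBS cells with no neutrophil gene, Cxcl2 was at 13611 CPM and Fth1 at 41931 CPM, higher than in the 45 cells with one for Cxcl2 (10818 CPM). S100a8 and S100a9 were lower in these 20 cells, at 439 against 1552 CPM and at 157 against 711 CPM. For most genes named in the comparison of D-CAN with WT/PBS, the Pdgfrb-TK/PBS level is therefore given as well.

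Cells with a Ly6c2 UMI, 9, 6, 50 and 15 per library, were set beside the chosen cells without one. Of 16 genes of classical monocytes that the rule did not use, 14, 9, 6 and 3 were 2-fold or more higher in the cells with Ly6c2 and 0, 1, 0 and 3 in those without, where 10.4%, 13%, 11.1% and 12.7% of all tested genes were higher with Ly6c2 and 35.2%, 44.4%, 9.02% and 13.7% without. WT/PBS thus had as many of these genes higher without Ly6c2 as with it. The genes named next were chosen after their values were seen. Over all libraries the 80 cells with a Ly6c2 UMI, of which 50 came from D-CAN, had Lyz2 at 9607 CPM against 1935 in the other 240. Within libraries Lyz2 was at 9054, 7465, 13020 and 740 CPM in the cells with Ly6c2 and at 1825, 2494, 4030 and 778 CPM in those without. The difference was thus seen in 3 libraries and not in WT/PBS. Plac8, a marker of myeloid progenitors and classical monocytes, was at 1412, 1192, 1924 and 834 CPM with Ly6c2 and at 426, 723, 1037 and 326 CPM without, higher in all 4 libraries. The coagulation factor gene F13a1 was also higher in all 4, at 554, 467, 497 and 551 CPM against 241, 162, 169 and 250. The invariant chain Cd74 went the other way in D-CAN, at 1654 CPM with Ly6c2 and 8957 without. Of 9 MHC class II genes that the rule did not use, 7 were 2-fold or more higher in the 35 D-CAN cells without Ly6c2 and 5 in the WT/PBS cells without it, with none lower, and 1 in each Pdgfrb-TK library, with 1 and 2 lower. Since Ly6c2 is a selecting gene, these values are a description.

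Against C1q macrophages of the same library, 14 of 6457 genes were 2-fold or more higher in each of the 4 libraries (0.217%) and 52 lower (0.805%). The rule set C1qa, C1qb, C1qc and Ly6c2 apart, and genes that go with them follow the choice in part. Plac8 was at 487, 770, 1625 and 461 CPM against 129, 244, 234 and 85.3 in C1q macrophages, but KPC tumor cells had 1067, 1504, 1018 and 840 CPM, more than the chosen cells in 3 libraries. Vcan, the matrix proteoglycan versican made by classical monocytes, was at 252, 573, 573 and 469 CPM against 118, 45.3, 59.4 and 92.5. The neutrophil collagenase gene Mmp8 was at 32.6, 31.2, 98.9 and 75.1 CPM against 12.1, 3.02, 1.55 and 9.14. Each of these was higher in the chosen cells in all 4 libraries, as were S100a9, G0s2, Gpr141, Gm9733, Tiam1 and Met. Among 20 classical monocyte genes, 6 were higher in all 4 libraries, with list medians of 0.34, 0.91, 1.79 and 1.43 on the log2 scale where all tested genes had medians of 0.10, 0.08, -0.07 and -0.09. Without the genes that the rule used, 4 of 16 were higher in all 4.

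Genes of mature macrophages were lower. Of 20 listed genes, 12 were 2-fold or more lower in every library, with list medians of -1.28, -2.12, -2.08 and -2.22. Apoe, the lipid-carrying apolipoprotein, was at 1695, 2462, 2150 and 1431 CPM against 13908, 17314, 15194 and 15426. The scavenger receptor for hemoglobin Cd163 was at 1.71, 0, 0 and 0 CPM against 21.6, 97.6, 7.73 and 43.2, and the monocyte-attracting chemokine Ccl8 at 0, 5.21, 15.2 and 2.09 CPM against 34.3, 570, 621 and 591. Fcna, Ms4a7 and the folate receptor Folr2 were also among the 10 largest falls. The classes were split by C1q genes, so the count is a description, and 8 of the 20 did not pass 2-fold in every library.

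**Figure D3:**
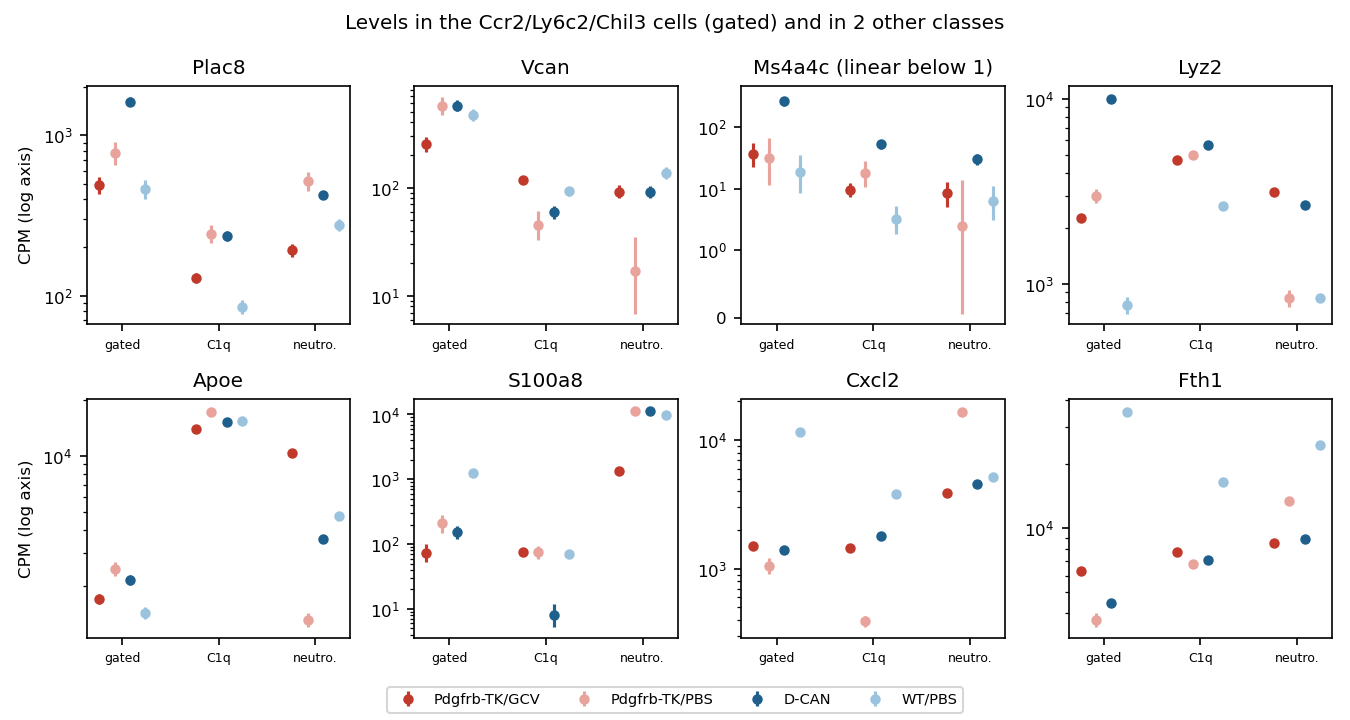
Levels (CPM of summed UMIs) of 8 genes in the Ccr2/Ly6c2/Chil3 cells (gated), C1q macrophages and neutrophils of 4 libraries, with bars for exact 95% Poisson intervals (counting error only) and log axes, that of Ms4a4c linear below 1. Plac8 and Vcan are higher in the chosen cells than in C1q macrophages in every library and Apoe is lower, while among the chosen cells Lyz2 is highest in D-CAN at 9985 CPM and Cxcl2 and Fth1 are highest in WT/PBS.

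GCV was given to deplete cells with an active Pdgfrb promoter, and its library was set against Pdgfrb-TK/PBS. Of 5940 genes tested in the chosen cells (mean of at least 20 CPM and at least 20 UMIs), 646 were 2-fold or more higher (10.9%) and 255 lower (4.29%), with a median log2 ratio of 0.03. The largest rises were carried by few cells. All 143 UMIs of Calca came from 1 cell, and 95.7% of the 625 UMIs of Fabp4, a fatty acid carrier of fat and endothelial cells, from 1 of 12 cells. Stmn2, Gc, Cd36, Serping1, Egfl7 and Slit3 were found in 2 to 6 cells. Ccn1, a matrix-associated growth regulator, was at 87.4 CPM in 16 cells and Sirt1, a deacetylase gene, at 60.0 CPM in 18, and neither had a UMI in Pdgfrb-TK/PBS, where 3 UMIs amount to 15.6 CPM. All 4 tested CAF markers were higher as well, Col3a1 at 350 against 10.4 CPM, with 69.1% of its UMIs in 1 cell.

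Among the largest falls, Tff1, a trefoil peptide of mucous epithelium, was at 144 CPM against 3248 in Pdgfrb-TK/PBS, where 76.4% of its UMIs lay in 1 cell. The epithelial gene Lgals4 and Il23a, Mucl3, Rbp2, Sptssb and Lgals2 also had 38.1% to 88% of their PBS UMIs in 1 cell. Aif1, which encodes the myeloid actin-binding protein IBA1, was at 18.8 against 98.9 CPM (5.25-fold lower, 2.37 to 12.2), found in 9 and 13 cells. Rassf4, a RAS-association domain gene, was at 36.0 against 182 CPM (5.06-fold lower, 2.87 to 9.15), found in 16 and 27 cells, and Cab39l stood at 15.4 against 78.1. The falls of Aif1 and Rassf4 were thus spread over many cells, unlike most of the others.

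Of 20 genes of classical monocytes, none rose with GCV and 5 fell, with a median of -0.48 where the cells outside the myeloid gate had 0.38 and C1q macrophages 0.04. Without the genes that the rule used, 3 of 16 fell, and against WT/PBS the median of the list was 0.06. Ccr2 fell from 874 to 336 CPM (2.60-fold, 2.11 to 3.22) and Vcan from 573 to 252 CPM (2.27-fold, 1.76 to 2.93). Gpr141, an orphan receptor, fell from 135 to 30.8 CPM (4.39-fold, 2.32 to 8.5). Ly6c2 stood at 29.1 against 72.9 CPM, from 17 and 14 UMIs, and S100a6 fell from 13596 to 6049 CPM. Ccr2 and Ly6c2 are selecting genes, and the cells chosen in GCV rested more on Chil3, which stood at 3040 against 2280 CPM. Of 12 growth and migration receptors that the rule did not use, 3 fell and none rose, among them the integrin subunit Itga4 (172 to 65.1 CPM) and Itgam (583 to 281 CPM), while Csf1r, the receptor for the growth factor CSF1 and a gene of the rule, stood at 159 against 213.

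MHC class II genes had a median of -0.67 with 2 of 10 falling, H2-DMb1 (104 to 48.0 CPM) and Ciita (78.1 to 30.8 CPM), against 0.96 outside the myeloid gate and -0.56 in C1q macrophages. Against WT/PBS the median was 0.54. H2-Ab1, which presents peptides to CD4 T cells, stood at 481 against 729 CPM. Of 5 interferon gamma genes tested, 1 was higher and 2 lower, with a median of -0.84 that was 0.39 against WT/PBS, 0.24 by the mean over cells and -0.02 without cells carrying a neutrophil gene. Of the 4 type I interferon genes tested 1 was lower, Cxcl10 at 32.6 against 141 CPM from 6 and 2 cells. These lists rest on few UMIs in Pdgfrb-TK/PBS, whose 58 cells held 192120 UMIs in all.

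Hypoxia and glycolysis genes were higher with GCV in 7 of 18 cases and lower in none, with a median of 0.86 (0.50 outside the myeloid gate, 0.96 in C1q macrophages). Ndrg1, a hypoxia-induced gene, rose from 36.4 to 199 CPM (5.46-fold, 2.56 to 13.9). Egln3, the HIF prolyl hydroxylase, rose from 31.2 to 96.0 CPM and Hilpda, which limits lipid breakdown in hypoxia, from 141 to 300 CPM (2.13-fold, 1.42 to 3.33). Immediate early and heat shock genes were higher in 6 of 14 cases, with a median of 0.90 and 0.83 outside the gate, led by the chaperone Hsph1 (93.7 to 451 CPM, 4.81-fold, 2.98 to 8.24) and Dnajb1 (31.2 to 117 CPM). Both lists thus had medians of the same sign outside the myeloid gate.

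Inflammatory cytokines moved both ways with GCV, 5 of 15 higher and 3 lower, with a median of 0.51 that was -1.64 against WT/PBS and -0.20 without Chil3 in the minimum. In C1q macrophages the median of the list was 1.48. Il1a rose from 26.0 to 92.5 CPM and Cxcl1 from 5.21 to 73.7 CPM, the latter from 1 and 13 cells. The chemokines Ccl3 (245 to 63.4 CPM) and Ccl4 (141 to 42.8 CPM) and the cytokine Tnf (167 to 51.4 CPM) fell. Of 13 macrophage maturation genes, Spp1, osteopontin, rose from 1332 to 2743 CPM and the mannose receptor Mrc1 fell from 344 to 156 CPM. Proliferation genes fell in 3 of 10 cases, Mki67 from 141 to 63.4 CPM found in 10 PBS and 18 GCV cells, while Mcm6 rose.

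D-CAN was given to kill stromal cells of adipose origin, and its library was set against WT/PBS. Of 5874 genes tested, 1103 were higher (18.8%) and 575 lower (9.79%), with a median log2 ratio of 0.12, so a list is read against that shift. The rises were spread over more cells than with GCV. Ciita, the MHC class II transactivator, stood at 30.8, 78.1, 108 and 0 CPM in the 4 libraries, and it was found in 20 D-CAN cells and in no WT/PBS cell, where 3 UMIs amount to 6.26 CPM. Zbp1, a sensor of Z-form nucleic acid induced by interferon, was at 15.4, 15.6, 107 and 0 CPM and found in 35 D-CAN cells. Lst1, a leukocyte gene in the MHC region, was at 66.8, 93.7, 381 and 6.26 CPM (60.8-fold over WT/PBS, 20.5 to 297) and found in 64 of 85 against 3 of 65 cells. Ptpro in 28 cells, Disc1 in 27, Gpr146 in 19, 1700001K19Rik in 13 and Gm17268 in 8 were also among the 10 largest rises. Ccl21a came from 1 cell, and the acinar gene Ctrb1, of which 69.8% lay in 1 cell, was also higher outside the myeloid gate (log2 ratio 7.12).

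The largest falls with D-CAN included genes of the WT/PBS cells described above. Cxcl3 fell from 3169 to 57.1 CPM (55.5-fold, 38.7 to 82.6) but stood at 57.3 CPM in Pdgfrb-TK/PBS. The Notch ligand gene Jag1 was found in 30 WT/PBS cells and 1 D-CAN cell, at 101, 46.8, 1.90 and 152 CPM. Serpinb2, a plasminogen activator inhibitor, was at 42.8, 5.21, 0 and 194 CPM and found in 12 WT/PBS cells, and Adgrl2 was at 63.4, 83.3, 0 and 173 CPM and found in 19. Gm15726, Gm21860 and Sprr1a were found in 11 to 19 WT/PBS cells, but 75.3% of the WT/PBS UMIs of Sprr1a lay in 1 cell. Apod, Mpo and Btbd11 rested on 1 or 2 WT/PBS cells.

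Interferon gamma genes had the highest median of the lists with more than 1 gene tested. Of 12 tested, 11 were higher and 1 lower, with a median of 2.82. Cxcl9, a chemokine for T cells, was at 0, 0, 103 and 2.09 CPM, from 5 D-CAN cells and 1 WT/PBS cell. Gbp3, a guanylate-binding protein, was at 8.57, 15.6, 60.9 and 4.17 CPM, from 18 and 2 cells. D-CAN was the highest of the 4 libraries for each of these, and Cd274, the checkpoint ligand PD-L1, was the 1 gene that fell, at 117, 78.1, 112 and 298 CPM. The list's median was 2.90 in the cells outside the myeloid gate, so the same list moved by as much there, and 1.54 in C1q macrophages.

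MHC class II genes, which present peptides to CD4 T cells, rose in 9 of 10 cases with a median of 2.23 (1.80 outside the gate). Without the 1 gene that the rule used, 8 of 9 rose with a median of 2.38, and without cells carrying other types' genes the median of the list was 0.81. In C1q macrophages the list had a median of 1.38. H2-Eb1 was at 343, 562, 1398 and 148 CPM (9.44-fold over WT/PBS, 7.39 to 12.2). H2-DMb1, which loads peptides, was at 48.0, 104, 238 and 25 CPM, and Cd74 at 1062, 1556, 4119 and 1022. D-CAN was highest in each, and Pdgfrb-TK/PBS was above WT/PBS in each. MHC class I genes rose in 9 of 12 cases with a median of 1.28, below the 2.14 of the cells outside the gate. H2-T23 was at 34.3, 10.4, 156 and 12.5 CPM, the immunoproteasome gene Psmb9 at 24, 26.0, 164 and 16.7 CPM, and the peptide transporter Tap1 at 17.1, 10.4, 81.8 and 14.6. Type I interferon genes moved both ways, 6 higher and 4 lower of 12. Slfn5 rose, at 34.3, 67.7, 164 and 25 CPM in the 4 libraries, while Isg15 (15.4, 20.8, 95.1 and 204 CPM) and Oasl1 (6.85, 31.2, 68.5 and 302 CPM) fell below WT/PBS but stayed above both Pdgfrb-TK libraries.

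Classical monocyte genes rose in 11 of 20 cases and fell in 4, with a median of 1.39 against 0.24 outside the gate. Without the genes that the rule used, 8 of 16 rose and 3 fell, with a median of 0.72 against 0.13. In C1q macrophages of the same libraries the list had a median of 0.30 (-0.02 without the genes of the rule). Ms4a4c was there at 52.6 against 3.19 CPM, Ccr2 at 251 against 36.8 and Lyz2 at 5620 against 2638. Chil3 went the other way there, at 44.2 against 415 CPM. Ifi27l2a, an interferon-induced gene of monocytes, was at 80.5, 115, 892 and 39.6 CPM (22.5-fold over WT/PBS, 14.3 to 37.7). Ms4a4c was at 36.0, 31.2, 266 and 18.8 CPM (14.2-fold, 7.26 to 31.7) and was found in 58.8% of the D-CAN cells and in 13.4%, 6.90% and 9.23% of those of the other libraries. Ms4a6c was at 146, 234, 670 and 56.3 CPM, and Lyz2 was 13-fold over WT/PBS (11.7 to 14.5). Ly6c2 itself was at 29.1, 72.9, 436 and 91.8 CPM (4.75-fold, 3.43 to 6.71). D-CAN was the highest library for all of these. Cd14, Thbs1, Clec4e and Chil3 were the 4 that fell, Cd14 from 1863 to 479 CPM, where Pdgfrb-TK/PBS was at 364.

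Genes of patrolling, non-classical monocytes were higher in 4 of 7 cases and lower in 1. The fractalkine receptor Cx3cr1 was at 49.7, 109, 228 and 12.5 CPM and Itgal at 48.0, 57.3, 105 and 10.4 CPM, each highest in D-CAN. Nr4a1, a factor that these monocytes need, was at 94.2, 125, 259 and 58.4 CPM (4.43-fold over WT/PBS, 2.93 to 6.91), but it is also an immediate early gene. Cd36 fell, at 87.4, 0, 9.51 and 207 CPM, with no UMI in Pdgfrb-TK/PBS. The defining genes Cd300e, Ace, Spn and Treml4 were at 31.3 CPM or less in every library. Of 13 growth and migration receptors that the rule did not use, 5 rose with a median of 0.41, among them Itga4 (65.1, 172, 179 and 45.9 CPM), and 1 fell, the CXCL12 receptor gene Cxcr4 (10.3, 15.6, 30.4 and 62.6 CPM). Of 13 transcription factor genes, 7 rose and none fell, among them Maf (94.2, 26.0, 129 and 25 CPM), Irf8 (87.4, 104, 196 and 62.6 CPM), which directs monocyte fate, and Batf3, found in 12 D-CAN cells at 45.7 CPM and in no WT/PBS cell.

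Inflammatory cytokine genes were lower in 8 of 16 cases and higher in 2, with a median of -1.48 (-0.23 outside the gate) that was -0.77 without genes carried by 1 cell and -0.46 without Chil3 in the minimum. In C1q macrophages the median of this list was -0.89. Cxcl2 fell 8.26-fold (7.64 to 8.93), and Cxcl1 was at 73.7, 5.21, 95.1 and 580 CPM. Il1a was at 92.5, 26.0, 15.2 and 192 CPM and Ptgs2, the prostaglandin synthase COX-2, at 279, 146, 219 and 1633. WT/PBS was the highest of the 4 libraries in each, and with Pdgfrb-TK/PBS in place of WT/PBS the list's median for D-CAN was 0.70. Osm, oncostatin M, rose, at 80.5, 31.2, 339 and 62.6 CPM. The median of the list thus fell against WT/PBS but not against Pdgfrb-TK/PBS, though Il1a was lowest in D-CAN. The cause was not tested. The medians of the interferon gamma, MHC class II and classical monocyte lists against Pdgfrb-TK/PBS were 2.15, 0.80 and 1.04.

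Other roles moved less uniformly with D-CAN. Of 7 tested neutrophil-like genes 6 fell, among them S100a8, at 73.7, 208, 152 and 1256 CPM, and S100a9, at 122, 141, 28.5 and 563 CPM, beside the neutrophil gene counts given above. Of pattern recognition and Fc receptors 6 of 14 rose and 3 fell. The Fc receptor Fcgr1 rose, at 48.0, 36.4, 158 and 31.3 CPM, and the lectin receptor Clec4d fell, at 54.8, 36.4, 112 and 741 CPM. Among CC chemokines, Ccl5 fell, at 13.7, 0, 13.3 and 373 CPM, while Ccl7 (10.3, 10.4, 98.9 and 10.4 CPM) and Ccl24 (49.7, 67.7, 112 and 8.34 CPM) rose in 9 and 4 D-CAN cells. Clec4d and Ccl5 were both highest in WT/PBS, and the cause of their falls was not tested.

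Of 12 immune suppression genes 4 rose and 4 fell. Hmox1 fell 41.6-fold from WT/PBS (32.1 to 55.0) to 110 CPM, above the 52.1 CPM of Pdgfrb-TK/PBS. The adenosine-forming enzyme Nt5e was at 111, 46.8, 101 and 10.4 CPM and the checkpoint Vsir at 103, 130, 198 and 37.6 CPM, both lowest in WT/PBS. Lipid genes rose in 2 and fell in 4 of 15 cases, with a median of -0.06. The regulator Pparg was lowest in D-CAN, at 61.7, 93.7, 1.90 and 62.6 CPM, and so was the lysosomal lipase Lipa, at 77.1, 109, 32.3 and 213 CPM. Lipoprotein lipase Lpl rose, at 17.1, 57.3, 131 and 10.4 CPM, and was found in 9 D-CAN cells and 4 of WT/PBS. Macrophage maturation genes rose in 4 and fell in 5 of 16 cases, and hypoxia genes were higher in 2 and lower in 2 of 18. Immediate early and heat shock genes rose in 7 of 14, with a median of 0.96 against -0.62 outside the gate, and Fos was at 377, 276, 1168 and 302 CPM. Matrix and coagulation genes rose in 3 and fell in 2 of 16, shares near the 18.8% and 9.79% of all tested genes, and Tgfbi was at 307, 432, 1003 and 311 CPM. None of 7 proliferation genes passed 2-fold.

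**Figure D4:**
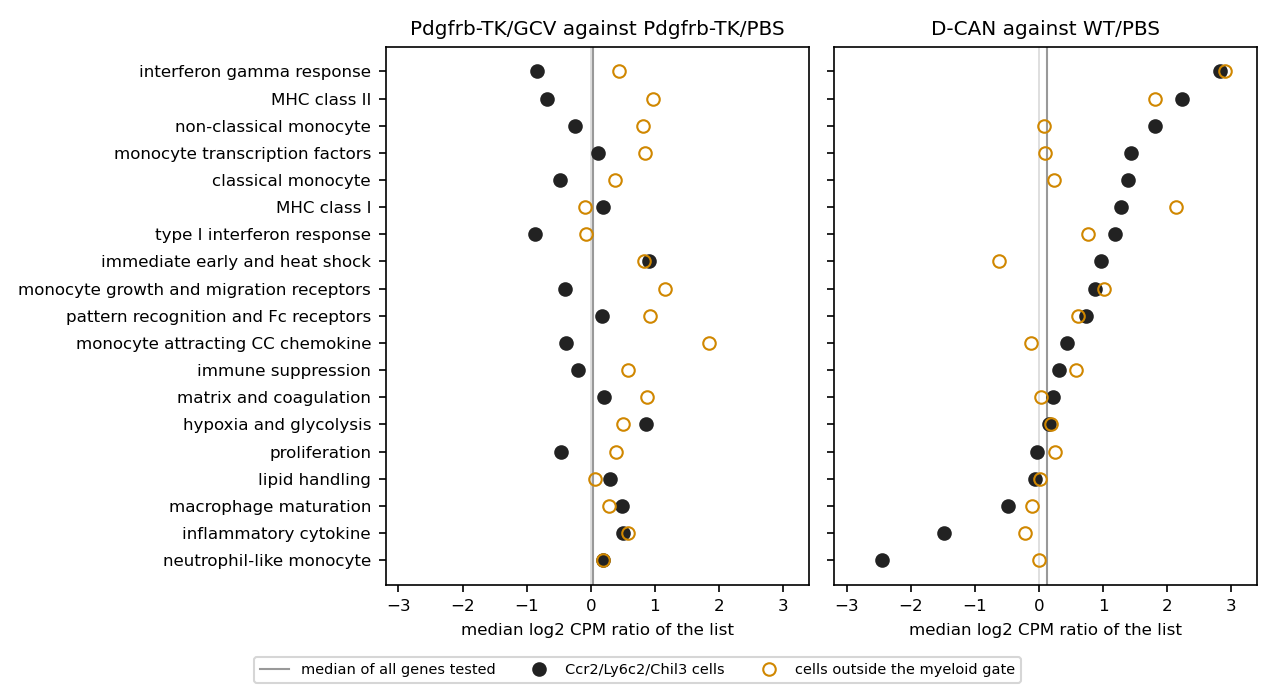
Median log2 CPM ratio of each gene list over its tested genes, Pdgfrb-TK/GCV against Pdgfrb-TK/PBS (left) and D-CAN against WT/PBS (right), in the Ccr2/Ly6c2/Chil3 cells (filled) and in all cells outside the myeloid gate (open), with the grey line at the median of all genes tested. The interferon gamma list stands at 2.82 and 2.90 on the right, and the inflammatory cytokine list at -1.48 and -0.23.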

How the data were processed

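Tumor cell suspensions were pooled by treatment, and 1 library was made for each of 4 conditions with the 10x Genomics platform. The authors deposited matrices of UMI counts per gene and cell, with Cell Ranger 7.0.0 named in the matrix headers, STAR 2.6 in the submitters' processing notes and mm10 as genome. The extract protocol in the labels describes nuclei of another tissue and was not relied on. Each deposited count matrix held barcodes already called as cells, and 12280, 10495, 10786 and 11657 barcodes were read. Barcodes under 200 genes were dropped, leaving 127722502, 84000174, 129550586 and 155382616 UMIs. Doublets were not removed and no caller was run.

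UMIs of the chosen cells were summed per library over 32285 shared genes and scaled to CPM. A log2 ratio had 1 CPM added to each side. Genes with a mean of at least 20 CPM and at least 20 UMIs over the libraries compared are called tested, and a difference of 2-fold or more was counted. With 1 library per condition no test was made. Intervals are exact at 95% (Clopper-Pearson for shares, conditional binomial for ratios, Poisson for levels), and a count of 0 allows 3 UMIs, which is 5.14, 15.6, 5.71 and 6.26 CPM. The chosen cells and the 29 gene lists (332 genes) were picked with earlier results of these data known. Named were the selecting genes and their near copies, up to 4 genes a list by size of ratio in either treatment comparison, the 10 largest rises and falls per treatment, and the 10 genes a direction against C1q macrophages with the largest ratio in the library where it was smallest. A further limit of the rule, the comparison with the cells it removed and some genes are not reported here. Other genes named were chosen after their values were seen. Counts of lists without the genes of the rule, and of MHC class II genes by Ly6c2, were added after seeing the data. Steps were tested on simulated data. Python 3.11.15, numpy 2.4.6, scipy 1.17.1, pandas 2.3.3 and matplotlib 3.10.9 were used.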

Additional observations from a re-analysis of the deposited data

Results flagged for a closer look

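Several values of the Ccr2/Ly6c2/Chil3 cells lay on opposite sides of no change in the GCV and D-CAN comparisons. The ratio of their share of gated myeloid cells to the PBS library was 0.533 with GCV and 1.33 with D-CAN, whose counting interval (0.953 to 1.87) includes 1. With the PBS libraries exchanged both ratios were below 1, at 0.922 and 0.769. Without cells carrying other types' genes the GCV ratio was 1.76 (0.483 to 9.63), from 13 GCV and 3 PBS cells. The median log2 ratio was -0.48 and 1.39 for classical monocyte genes, -0.67 and 2.23 for MHC class II genes, and 0.51 and -1.48 for inflammatory cytokine genes. Against WT/PBS the 3 GCV medians changed sign, to 0.06, 0.54 and -1.64. None of these differences between the treatments was tested, since each rests on 1 library per condition and the PBS libraries of the models also differed.

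Both WT libraries list reporter sequences that no comparison used. In the chosen cells the feature GFPcds had 12 UMIs in D-CAN (22.8 CPM, 11.8 to 39.9) and 13 in WT/PBS (27.1 CPM, 14.4 to 46.4). Tdtomato had 23 UMIs in D-CAN (43.8 CPM, 27.7 to 65.7) and 20 in WT/PBS (41.7 CPM, 25.5 to 64.4), in 17 and 14 cells. All 4 values lie above the level of 3 UMIs, which is 5.71 and 6.26 CPM. C1q macrophages had GFPcds at 28.1 and 32.1 CPM and Tdtomato at 28.1 and 47.6 CPM, while KPC tumor cells had at most 1.71 CPM of either.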

How the results depend on the processing

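Without Chil3 in the minimum, the ratio of the share of kept cells was 1.02 for GCV and 3.12 for D-CAN, and of gated myeloid cells 0.331 and 2.78. With cells thinned to 2000 UMIs before the whole rule, upper limits included, the GCV ratios were 3.16 of kept and 0.866 of myeloid cells. Leaving out cells carrying other types' genes left 13 GCV and 3 PBS cells. The GCV ratios were then 3.69 (1.02 to 20.2) and 1.76 (0.483 to 9.63). For D-CAN, 34 and 5 cells gave 7.77 (3.02 to 25.4) of kept cells. Kept cells themselves were not filtered. An epithelial gene was detected in 56.5% of the chosen D-CAN cells and 92.3% of those of WT/PBS. With the PBS libraries exchanged between the models, the ratios of myeloid cells were 0.922 for GCV and 0.769 for D-CAN. Chosen after seeing the data, no upper limit on the macrophage genes gave 4.84 and 1.57 for GCV, and leaving out cells with a neutrophil gene gave 1.19 (0.801 to 1.79) and 0.520 for GCV and 2.17 and 2.02 for D-CAN.

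Genes past 2-fold with GCV numbered 145 lower with 10 CPM added and 430 lower by the mean over cells, both of 5940 tested. Other settings changed the number tested. At a mean of at least 100 CPM, 107 of 1729 were higher and 42 lower. Without cells carrying other types' genes, 54 of 233 were higher and 19 lower, from 13 GCV and 3 PBS cells. Against the other PBS library 1304 of 6255 were higher and 440 lower. Without Chil3 in the minimum (added later) 306 of 3495 were higher. For D-CAN, 266 of 1664 were higher and 150 lower at 100 CPM. Without other types' genes 606 of 1922 were higher and 181 lower, from 34 D-CAN and 5 WT/PBS cells. Against the other PBS library 700 of 5265 were higher. Without neutrophil genes (added later) 707 of 2989 were higher and 332 lower. In all 4 libraries, genes against C1q macrophages numbered 5 higher and 23 lower at 100 CPM, 7 higher with 10 CPM added, and 22 higher by the mean over cells. Leaving out 1 library each gave 21 to 32 higher and 56 to 98 lower against C1q macrophages (the highest without Pdgfrb-TK/GCV). Fewer libraries then have to pass 2-fold, which favors higher counts, so these counts say little about stability.

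With GCV, list medians changed sign for interferon gamma (0.24 by the mean over cells, 0.39 against the other PBS library), inflammatory cytokines (-1.64 against the other PBS library, -0.20 without Chil3), MHC class II (0.54 against the other PBS library) and classical monocyte genes (0.06 against the other PBS library). With D-CAN, inflammatory cytokines changed sign against the other PBS library (0.70), while the medians of MHC class II (0.80 to 2.55), interferon gamma (2.15 to 4.75) and classical monocyte genes (0.72 to 1.85) were above 0 in the chosen cells under each alternative run, except that the 1 interferon gamma gene left at 100 CPM stood at -1.40. The causes were not tested. The 58 cells and 192120 UMIs of Pdgfrb-TK/PBS limit the GCV comparison. No paired analysis was possible because each group has 1 library.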
